A study of Homo sapiens with 9 samples.

Results

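Interferon-stimulated genes were followed across Huh-7 cells, a human hepatoma line, under hypoxia and after knockdown of NDRG3 or HIF1A. The set was named by symbol: 34 genes were listed, and 33 of them were found among the 18153 genes of the gene-level table. USP18 was searched under its symbol and its synonyms and is not analysed here. Stable lines had been made with lentivirus that expressed a short hairpin RNA (shRNA). The shRNA targeted NDRG3, a member of the N-myc downstream-regulated gene family, or HIF1A, the oxygen-regulated partner in the HIF-1 complex, and control lines carried one to GFP. Illumina expression arrays measured the RNA, with 1 array in each of 9 groups.

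On a platform of 6 arrays, the groups were shNDRG3 cells after 6 h and after 12 h of hypoxia (1% oxygen), shHIF1A cells after 12 h of hypoxia, shGFP cells after 6 h and after 12 h of hypoxia, and shGFP cells in normoxia. On a second platform of 3 arrays, the groups were shNDRG3 cells after 24 h of hypoxia, shGFP cells after 24 h of hypoxia, and shGFP cells in normoxia. Every group carried an shRNA vector, and the labels do not say whether a line is a clone or a pool, nor do they name an interferon treatment. Knockdown cells in normoxia are not analysed here, so each knockdown was set against shGFP cells at the same time of hypoxia. All differences between arrays stay within a platform, while the fitted estimates given further on draw on both. The 24 h time point cannot be told apart from the second platform.

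Type I interferons signal through the receptor IFNAR1-IFNAR2 and the kinases JAK1 and TYK2 to a complex that holds STAT2 and IRF9 and binds interferon-stimulated response elements (ISRE) in the promoters of its target genes. Interferon gamma acts through IFNGR1-IFNGR2, and its response is read at gamma-activated sites (GAS). The induced genes encode sensors of viral nucleic acid, transcription factors of the pathway itself, and effectors that block viral entry, translation, replication and release. Hepatocytes and hepatoma cells respond to interferon with many of these genes, which are central to the control of hepatitis viruses in the liver.

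Promoter sequences are given here for ISG20, for genes at least 2-fold lower with NDRG3 knockdown, and for IRF9 and IFITM1, which were less than 2-fold apart. They show the elements through which interferon and hypoxia signalling are known to act. MX1, at least 2-fold lower after 12 h of hypoxia, is not printed. RefSeq windows (GRCh38.p14, 250 bases before to 50 bases after an annotated start) were held for 26 of the 34 genes, 7 of them with more than 1 start. No window was held for MX2, IFITM2, GBP2, IFIT2, OASL, IRF7, OAS2 and USP18. The ISRE core, GAAA followed by any 2 bases and a second GAAA, was searched on both strands and was present in 18 of the 26 genes (69.2%), against 4.38% of the 27305 genes with a window. The GAS core, TTC followed by any 3 bases and GAA, was present in 8 of the 26 (30.8%), against 9.38% of all genes. The hypoxia-response core ACGTG was present in 7 of the 26 (26.9%), against 24.9% of all genes, and the other core, GCGTG, in 7 (26.9%), against 40.6%. Among the 11769 genes that have a window and are in the gene-level table, the shares were 4.32% for ISRE, 9.40% for GAS, 29.0% for ACGTG and 50.9% for GCGTG. A match describes the letters in this window and shows no binding.

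ISG20, the gene with the largest hypoxia difference of the set, held an ISRE core at -69 to -60 from its start and the palindrome CACGTG at -114 to -109, which reads as ACGTG on both strands. The same palindrome was present in HERC5 at -33 to -28 and in IFI30 at -216 to -211. Neither HERC5 nor IFI30 was above normoxia at each time in hypoxic shGFP cells. IRF9 held the palindrome at -71 to -66 and a GAS at -63 to -55. In the lines below, capitals mark these motifs, and each sequence is written 5′ to 3′ on the strand of its gene: chr15:88638891-88638966 on the plus strand for ISG20 and chr14:24161180-24161220 on the plus strand for IRF9.

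ISG20: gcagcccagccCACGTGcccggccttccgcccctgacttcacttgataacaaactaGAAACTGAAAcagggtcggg

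IRF9: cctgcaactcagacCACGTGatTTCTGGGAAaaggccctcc

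The next sequences belong to genes at least 2-fold lower in shNDRG3 cells, beside IFITM1, the IFITM gene whose level differed least. Capitals mark ISRE cores, and in IRF1 a GAS. The lines of IFI27 and BST2 also hold a GAS that is not marked, at -101 to -93 and at -136 to -128. The coordinates are chr14:94110616-94110660 on the plus strand for IFI27, chr19:17405735-17405770 on the minus strand for BST2, chr11:320876-320922 on the minus strand for IFITM3, chr11:313990-314020 on the plus strand for IFITM1 and chr5:132490879-132490907 on the minus strand for IRF1. IFI27 held 1 core on each strand, 3 bases apart, and the cores of BST2 overlap.

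IFI27: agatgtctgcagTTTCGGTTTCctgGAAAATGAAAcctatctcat

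BST2: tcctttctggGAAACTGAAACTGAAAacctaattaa

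IFITM3: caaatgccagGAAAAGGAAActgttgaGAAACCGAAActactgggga

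IFITM1: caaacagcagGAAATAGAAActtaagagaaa

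IRF1: acagcctgatTTCCCCGAAatgacggcac

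The arrays were first checked for what they can show. Median intensity over all genes lay between 169 and 173 on the 6-array platform and between 270 and 276 on the 3-array platform, and levels are linear intensities with background left in. NDRG3 intensity was 268, 215 and 233 in shNDRG3 cells after 6, 12 and 24 h, against 1278, 1456 and 1712 in shGFP cells. HIF1A intensity was 231 in shHIF1A cells against 897 in shGFP cells. In shNDRG3 cells HIF1A intensity was 805, 1065 and 331 after 6, 12 and 24 h, against 824, 897 and 572 in shGFP cells, and so was lower at 24 h. A gene counts as measured in a comparison where at least 1 of the compared arrays was above a filter value, set at the 40th percentile of each platform (127.3 and 210.2). Of 11 hepatocyte markers, at most 3 passed that value on any array, and ALB lay between 160 and 229, so the hepatocyte identity of the label was not seen in these markers. Of 9 leukocyte markers, 1 to 4 passed on any array, none was listed at 0, and PTPRC stayed between 90.0 and 161. Their summed level lay between 1779 and 2880. Of 4 plasmacytoid dendritic cell markers, 0 to 2 passed. In bulk RNA, fewer cells expressing a gene and less RNA per cell cannot be told apart.

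Of the 33 genes, 18 were over the filter value on all 9 arrays, 13 on some arrays and 2, MX2 and OAS2, on none. For 23 of the 33 the deposited level equals the same single probe on both platforms, and 8 genes that were at least 2-fold apart in some comparison are all of that kind. The levels of different genes cannot be set against each other on an array.

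Every difference below is a log2 difference of intensity plus 32. A single comparison rests on 1 array per group, so a fold of 2 is a description without a test. The 6 h and 12 h hypoxia comparisons share their normoxia array, and hypoxia and knockdown comparisons at one time share the shGFP hypoxia array. The map of differences shows all 33 genes in the 7 comparisons.

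**Figure D1:**
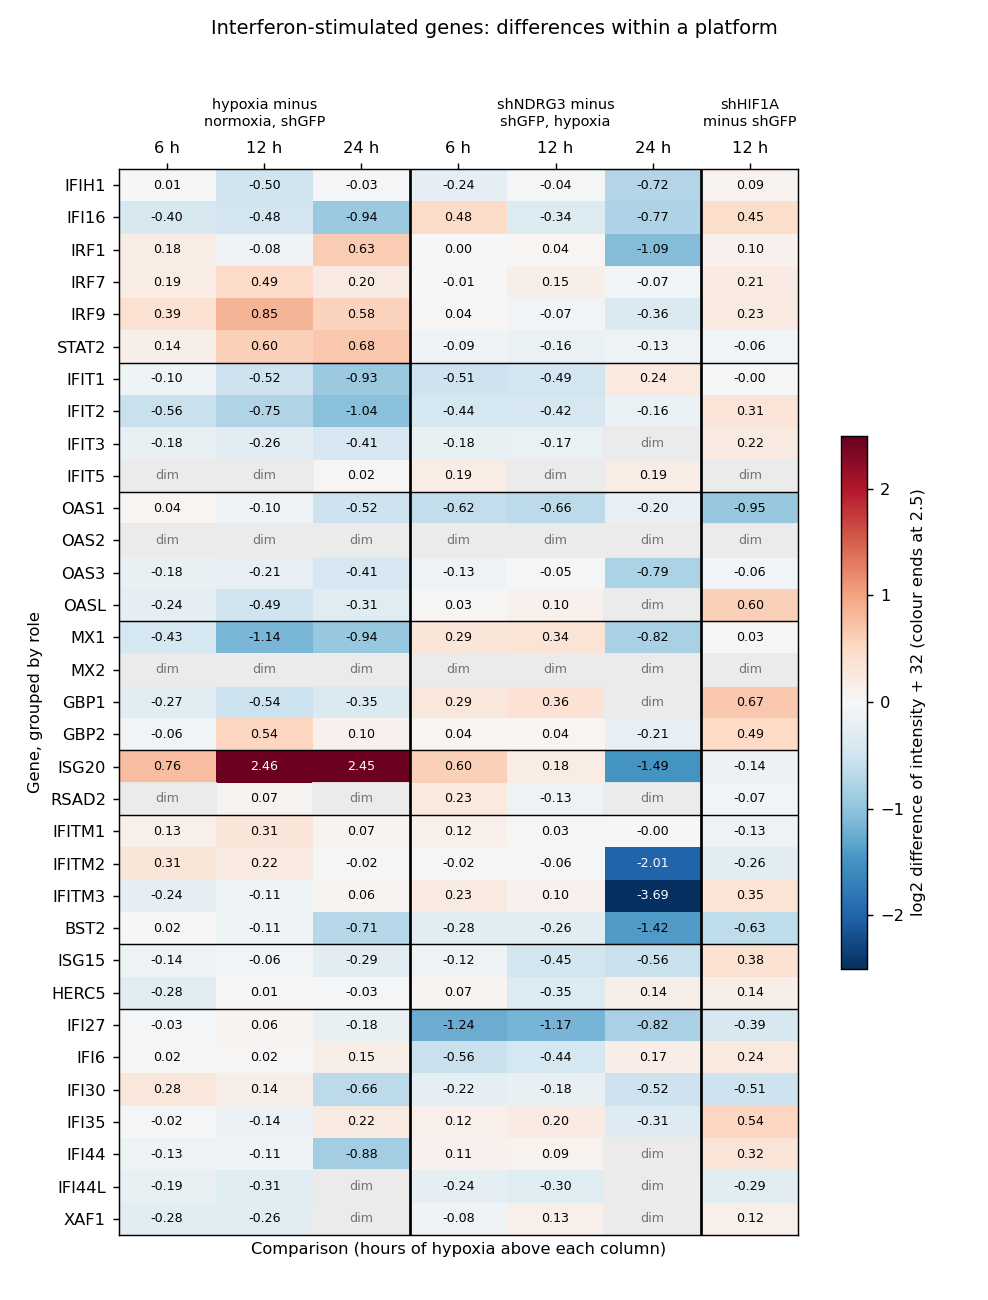
Log2 differences (intensity + 32) of the 33 interferon-stimulated genes found, rows grouped by role, in the 7 comparisons within a platform; columns give hours of hypoxia, "dim" marks genes under the filter value on both arrays, and 1 array stands behind each group. ISG20 is highest after 12 h and 24 h of hypoxia (2.46 and 2.45), and IFITM3 is lowest in shNDRG3 cells at 24 h (-3.69).

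In hypoxia, ISG20, an RNA exonuclease, stood far above its normoxia level in shGFP cells, while IFIT2 and MX1 stood below theirs. On the 6-array platform ISG20 intensity was 527 in normoxia, 917 after 6 h and 3042 after 12 h of hypoxia in shGFP cells. On the 3-array platform it was 2124 after 24 h of hypoxia against 362 in normoxia. The level was higher at each time and the folds were 5.50 at 12 h and 5.48 at 24 h. In knockdown cells ISG20 intensity also lay above the shGFP normoxia array: 1408 and 3456 in shNDRG3 cells after 6 h and 12 h, and 2759 in shHIF1A cells after 12 h. The shHIF1A array was thus 2.32 (log2) above the normoxia array, and the shGFP array at the same 12 h was 2.46 above it.

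The transcription factors of the response were mostly higher in hypoxia. IRF9, the DNA-binding partner of STAT2, had intensities of 809 in normoxia, 1070 after 6 h and 1481 after 12 h in shGFP cells, and 1252 after 24 h against 829 in its own normoxia array. STAT2, the transactivating subunit of the same complex, had intensities of 1182, 1308 and 1814 over the first series and 2328 against 1444 at 24 h. Neither reached 2-fold at any time, and both were above normoxia at all 3 times. IRF7, which drives interferon alpha genes, was above normoxia at each time (0.19, 0.49 and 0.20) at levels near the filter value. IRF1, an interferon gamma target and activator, was 0.18 and -0.08 from normoxia at 6 h and 12 h, and 0.63 at 24 h.

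Among the sensors, IFI16, which detects DNA, was lower in hypoxia at all 3 times (-0.40, -0.48 and -0.94). IFIH1, the RNA sensor MDA5, was lower at 12 h alone (-0.50), with 0.01 at 6 h and -0.03 at 24 h. IFI16 thus lay on the opposite side of normoxia from IRF9 and STAT2.

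The IFIT proteins bind foreign RNA and block its translation, and IFIT1, IFIT2 and IFIT3 lay below normoxia at each time. IFIT2 intensity was 1348 in normoxia, 903 after 6 h and 791 after 12 h in shGFP cells. At 24 h it was 229 in hypoxia against 504 in normoxia, a log2 difference of -1.04. IFIT1 differed by -0.10, -0.52 and -0.93, and IFIT3 by -0.18, -0.26 and -0.41. IFIT5 was near the filter value on most arrays and differed by 0.02 at 24 h.

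MX1, a GTPase that traps viral nucleocapsids, followed the same course. Its intensity was 635 in normoxia, 463 after 6 h and 272 after 12 h in shGFP cells, and 339 after 24 h against 679 in normoxia. The log2 differences were -0.43, -1.14 and -0.94. The guanylate-binding proteins differed from each other: GBP1 was lower at each time (-0.27, -0.54 and -0.35), whereas GBP2 differed by -0.06, 0.54 and 0.10. At 12 h and 24 h GBP1 was over the filter value in normoxia alone, so there it could only be lower.

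**Figure D2:**
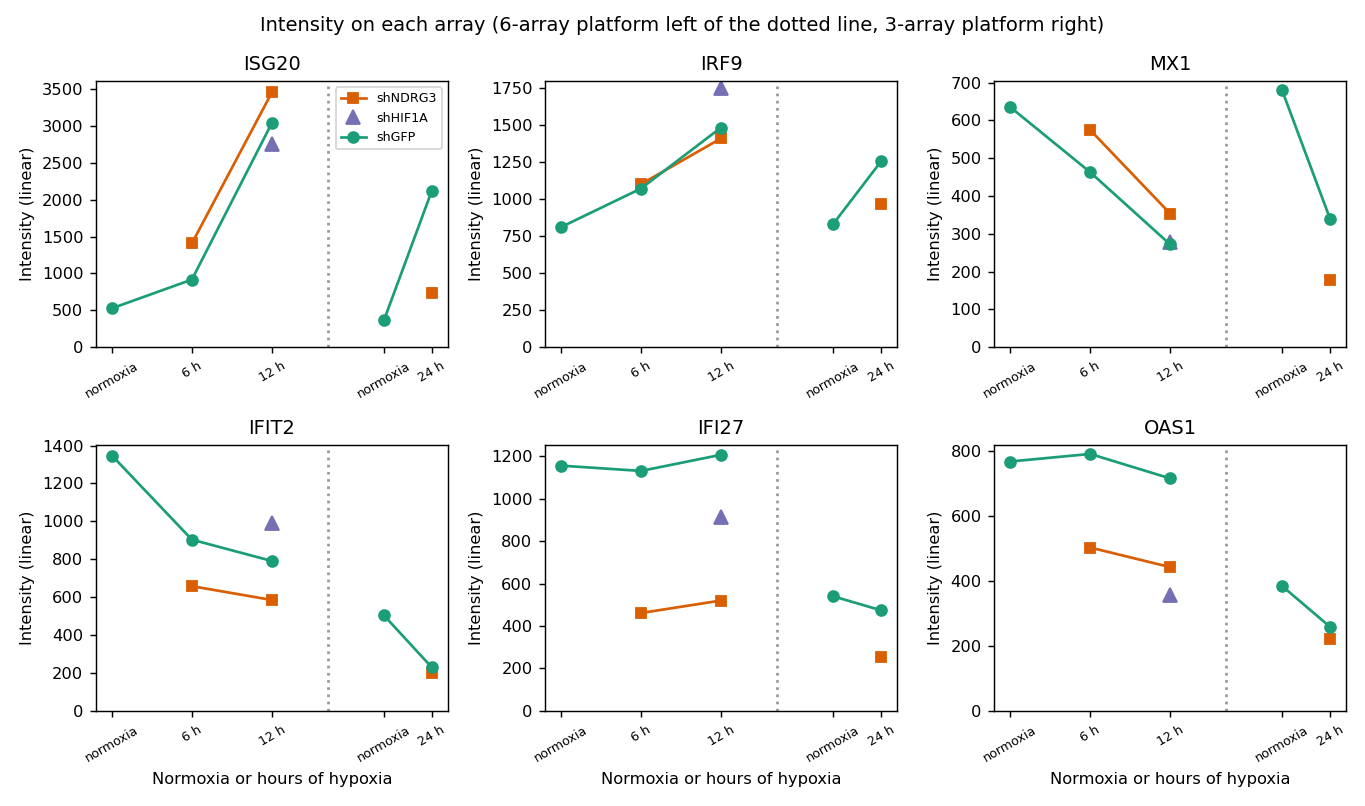
Linear intensity of ISG20, IRF9, MX1, IFIT2, IFI27 and OAS1 on each of the 9 arrays, with shNDRG3 as squares, shHIF1A as triangles and shGFP as circles; the dotted line separates the platforms and each point is 1 array. ISG20 and IRF9 are higher and MX1 and IFIT2 lower in hypoxia than in normoxia in shGFP cells, while IFI27 and OAS1 lie lower in shNDRG3 than in shGFP cells at every time.

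The OAS enzymes make oligoadenylates that activate RNase L. OAS3 and its catalytically inactive relative OASL were below normoxia at all 3 times, OAS3 by -0.18, -0.21 and -0.41 and OASL by -0.24, -0.49 and -0.31. OAS1 was 0.04 and -0.10 from normoxia at 6 h and 12 h and -0.52 at 24 h. OAS2 was under the filter value on every array, as was MX2 among the GTPases.

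The genes IFITM1, IFITM2 and IFITM3, whose products restrict viral entry, differed from normoxia by between -0.24 and 0.31 at the 3 times. BST2, tetherin, which holds budding virions at the cell surface, differed by 0.02 at 6 h, by -0.11 at 12 h and by -0.71 at 24 h. ISG15, a ubiquitin-like modifier, and HERC5, its ligase, differed by between -0.29 and 0.01.

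Of the remaining genes, IFI44 was lower at 24 h (-0.88), as was IFI30 (-0.66), a lysosomal thiol reductase, which at 6 h and 12 h had been higher (0.28 and 0.14). IFI27 and IFI6, small mitochondrial proteins, were within 0.18 of normoxia at all times. IFI35 and XAF1, a partner of the apoptosis inhibitor XIAP, stayed within 0.28 where measured. RSAD2, viperin, was measured only at 12 h among the hypoxia comparisons (0.07).

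Counts over the set take all 33 genes with no filter, since 4 genes passed at 24 h through the normoxia array alone (IFI44, IFIT3, OASL and GBP1) and could only lie below it. At 6 h, 15 genes lay above normoxia and 18 below, with none 2-fold apart, where 0.952% of all measured genes were. At 12 h, 14 lay above and 19 below, and 2 were 2-fold apart (ISG20 higher, MX1 lower), where 4.02% of all measured genes were, 2.49% higher and 1.53% lower. At 24 h, 12 lay above and 21 below, and 2 were 2-fold apart (ISG20 higher, IFIT2 lower), where 4.64% of all measured genes were, 2.69% higher and 1.95% lower. The medians of -0.03, -0.08 and -0.03 lay beside all-gene medians of -0.01, -0.00 and -0.01. The 2-fold counts are not far from these background shares. Below normoxia at 6 h, 12 h and 24 h lay 54.5%, 57.6% and 63.6% of the set, against 52.2%, 51.0% and 51.6% of all genes. Above normoxia at each time were 7 of the 33 (21.2%, against 22% of all genes), and below at each time 11 (33.3%, against 25.1%). The genes higher at each time were IFI6, IFIT5, IFITM1, IRF7, IRF9, ISG20 and STAT2.

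A limma fit of 1 hypoxia term to the 5 shGFP arrays, with the platform as a block, tested 12774 genes and called 56 of them (0.438%), none of which was among the 31 interferon-stimulated genes tested (limma, Benjamini-Hochberg adjusted p). In this fit the times stand in for replicates, so the error is the spread between times. At an unadjusted p under 0.05 stood 10 of the 31 genes (32.3%), against 19.4% of all genes. ISG20 had an estimate of 1.97 ± 0.46 (SE; limma adjusted p = 0.123), IRF9 of 0.60 ± 0.17 (adjusted p = 0.154) and STAT2 of 0.50 ± 0.18 (adjusted p = 0.197). IFIT2 had an estimate of -0.82 ± 0.15 (limma adjusted p = 0.0879, the lowest of the set), MX1 of -0.85 ± 0.21 (adjusted p = 0.133) and IFI16 of -0.65 ± 0.15 (adjusted p = 0.124). The other genes under that unadjusted threshold were IFIT1, IFI44, GBP1 and OASL, each with a negative estimate.

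Without the 6 h arrays, 7 of the 31 genes were called in the same fit, which then called 949 of 12644 genes (7.51%) with 1 residual degree of freedom. ISG20, IRF9 and STAT2 rose and MX1, IFIT2, IFIT1 and IFI16 fell in that fit (limma, Benjamini-Hochberg adjusted p of 0.000283 for ISG20 and 0.0195 for IFIT2). Over all alternatives the adjusted p of ISG20 lay between 0.000283 and 0.29, and that of IFIT2 between 0.0195 and 0.238. Leaving out the 12 h or the 24 h arrays gave no call among the set.

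**Figure D3:**
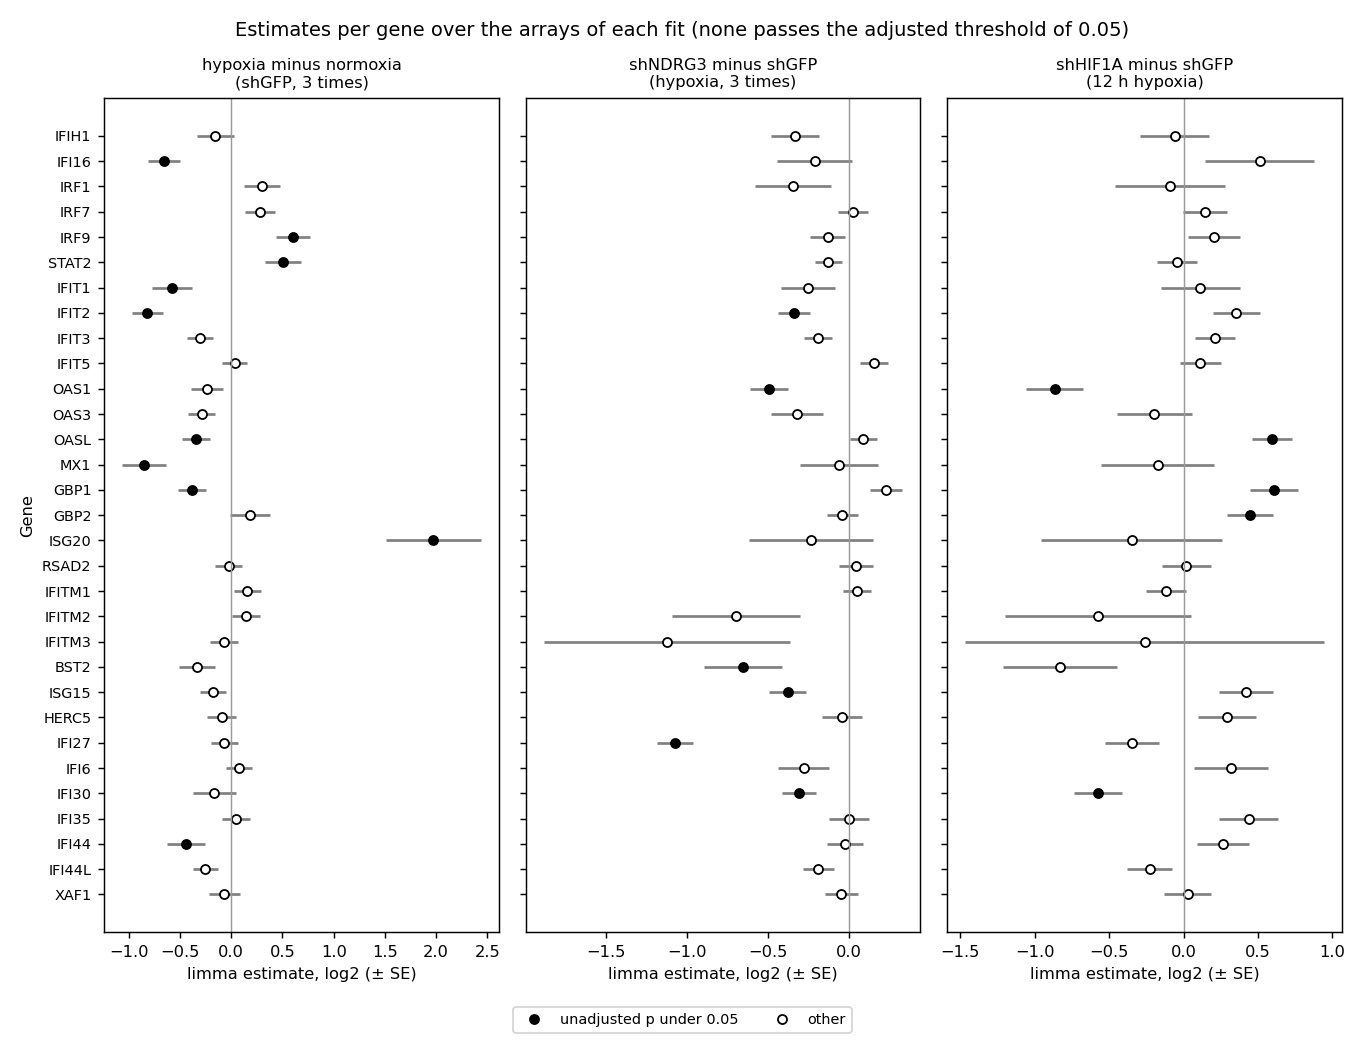
Limma estimates (log2, points) with standard errors (lines) for the 31 interferon-stimulated genes tested, for hypoxia minus normoxia, shNDRG3 minus shGFP and shHIF1A minus shGFP; filled points have an unadjusted p under 0.05. ISG20 stands highest for hypoxia (1.97), IFI27 lies at -1.07 ± 0.11 for NDRG3, and the lines of IFITM3 for NDRG3 are wide (± 0.76). The shHIF1A estimates take their 12 h reference from the shGFP and shNDRG3 arrays of the fit, not from the shGFP array alone.

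With knockdown of NDRG3, IFI27 was the gene of the set with the largest negative difference at 6 h and 12 h, and it was lower at 24 h as well. Its intensity was 461, 520 and 255 in shNDRG3 cells after 6, 12 and 24 h of hypoxia, against 1132, 1208 and 474 in shGFP cells at the same times. On the 6-array platform both shNDRG3 arrays lay below all 3 shGFP arrays and the shHIF1A array (912). The log2 differences were -1.24, -1.17 and -0.82, and the first 2 were the only 2-fold differences of the set at 6 h and 12 h. Of all measured genes, 0.115% were 2-fold apart at 6 h (0.0706% lower) and 0.168% at 12 h (0.106% lower).

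The NDRG3 term of the fit to all 9 arrays, over 13237 genes, gave IFI27 an estimate of -1.07 ± 0.11 (SE; limma, Benjamini-Hochberg adjusted p = 0.213, between 7.05e-10 and 0.906 over the alternatives). The term called 1 gene, NDRG3 itself (0.00755%), so 0 of the 31 interferon-stimulated genes were called by limma. At an unadjusted p under 0.05 stood 6 of them (19.4%), against 8.53% of all genes, all with negative estimates: IFI27, OAS1, IFIT2, ISG15, IFI30 and BST2. Without the 24 h arrays limma called 8 of the 31 genes, with 646 of 12156 called over all genes (5.31%), but that fit leaves 1 residual degree of freedom. In it GBP1, ISG20 and MX1 rose, and IFI27, IFI6, IFIT1, IFIT2 and OAS1 fell. IFI27 then had an estimate of -1.20 ± 0.09 (adjusted p = 7.05e-10), and without the 12 h or 6 h arrays its adjusted p was 0.906 or 0.728.

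OAS1 was lower in both knockdowns. Its intensity was 502, 442 and 220 in shNDRG3 cells after 6, 12 and 24 h, against 790, 715 and 258 in shGFP cells. In shHIF1A cells after 12 h it was 355 against 715 in shGFP cells, a difference of -0.95. The NDRG3 estimate was -0.49 ± 0.12 (SE; limma adjusted p = 0.512, between 3.78e-05 and 0.906 over the alternatives). In normoxia the shGFP level was 767, so OAS1 was low in the knockdown lines and not in hypoxic control cells of that platform.

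At the same early times IFIT1 and IFIT2 were also lower in the NDRG3 knockdown. IFIT1 intensity was 1009 and 764 in shNDRG3 cells, against 1451 and 1082 in shGFP cells (-0.51 and -0.49). IFIT2 differed by -0.44 and -0.42. At 24 h IFIT1 was 0.24 higher, and IFIT2, then under the filter value in shNDRG3 cells, was -0.16. IFI6, which limits apoptosis, was lower by -0.56 and -0.44 at 6 h and 12 h and 0.17 higher at 24 h. Of the antiviral GTPases, MX1 went the other way at 6 h and 12 h (0.29 and 0.34), as did GBP1 (0.29 and 0.36). At 12 h GBP1 was over the filter value in shNDRG3 cells alone, so there it could only be higher. GBP2 differed by 0.04 at 6 h and 0.04 at 12 h, and MX2 was under the filter value.

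The 6 h and 12 h knockdown comparisons share no array. Among 30 genes measured in both, 24 had the same sign (80%), against 62.2% of all genes, and the differences had r = 0.80 across the set and 0.49 across all genes, which are not independent replicates. Between 12 h and 24 h, on different platforms, 12 of 23 genes had the same sign (52.2%), against 56.8% of all genes. Both counts keep the filter, and a gene over the filter value on 1 array alone could only be higher on that array. At 24 h, 5 genes passed through shGFP alone. At 6 h, 2 genes passed through shNDRG3 alone, and at 12 h 1 through shNDRG3 alone and 1 through shGFP alone. The 2 shares are therefore not set against each other.

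At 24 h, 24 of the 33 genes lay below shGFP in shNDRG3 cells (72.7%, against 47.8% of all genes) and 9 above, counted with no filter. The median was -0.21, beside an all-gene median of 0.01. Among them, 5 were at least 2-fold lower (IFITM3, IFITM2, ISG20, BST2 and IRF1) and none higher, where 3.25% of all measured genes were 2-fold apart, 2.57% lower. For 5 genes (IFI16, IFIH1, IFIT2, MX1 and OAS3) only the shGFP array passed the filter value, so background bounds their level on the shNDRG3 side.

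Genes of membrane restriction factors held the largest differences. After 24 h IFITM3 had an intensity of 320 with shNDRG3, against 4525 with shGFP in hypoxia and 4327 with shGFP in normoxia. It was 12.9-fold lower than in hypoxic shGFP cells, a log2 difference of -3.69. At 6 h and 12 h, on the other platform and through the same probe, IFITM3 intensity was 16578 on both shNDRG3 arrays, against 14159 and 15473 in shGFP cells (0.23 and 0.10). The low level was thus seen on 1 shNDRG3 array of 3.

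IFITM2 had an intensity of 1544 with shNDRG3 after 24 h, against 6305 with shGFP in hypoxia and 6393 with shGFP in normoxia. At 6 h and 12 h it was 24083 and 22139 in shNDRG3 cells, against 24463 and 23017 in shGFP cells. It too was apart at 24 h and not before (-0.02, -0.06 and -2.01). IFITM1, the neighbour of these genes on chromosome 11, had intensities of 3796, 4033 and 2005 in shNDRG3 cells at the 3 times, against 3486, 3946 and 2006 in shGFP cells. It differed by 0.12, 0.03 and -0.00, so the 3 IFITM genes did not share a difference at 24 h.

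BST2 intensity was 6088, 5650 and 464 in shNDRG3 cells after 6, 12 and 24 h, against 7393, 6759 and 1298 in shGFP cells. The differences were -0.28, -0.26 and -1.42. The shGFP normoxia arrays had 7306 on the first platform and 2142 on the second, so at 24 h BST2 was lower in hypoxic control cells than in normoxia and lower again in shNDRG3 cells.

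ISG20 at 24 h had an intensity of 737 in shNDRG3 cells, against 2124 in shGFP cells in hypoxia and 362 in normoxia. The shNDRG3 level lay between both control arrays, with a difference of -1.49 from the hypoxic one. At 6 h and 12 h ISG20 had been higher in shNDRG3 cells, by 0.60 and 0.18. The leukocyte marker CD68 had intensities of 572, 1439 and 640 on the same 3 arrays at 24 h, in the order shNDRG3, hypoxic shGFP and normoxic shGFP. The summed level of the 9 leukocyte markers was 1948, 2836 and 2101 there, and that of the 8 without CD68 was 1376, 1397 and 1461. The part of other cells in the ISG20 result was not tested.

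With no filter, all 6 sensors and transcription factors lay below shGFP at 24 h, against 47.8% of all genes. IFI16 and IFIH1 were then under the filter value in shNDRG3 cells. IRF1 intensity was 512 in shNDRG3 cells, against 1125 in shGFP cells in hypoxia and 714 in normoxia (-1.09). At 6 h and 12 h IRF1 was 820 and 696 in shNDRG3 cells, against 818 and 674 in shGFP cells, and so was level. The sensors IFI16 and IFIH1 differed by -0.77 and -0.72 at 24 h, IRF9 by -0.36, STAT2 by -0.13 and IRF7 by -0.07.

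**Figure D4:**
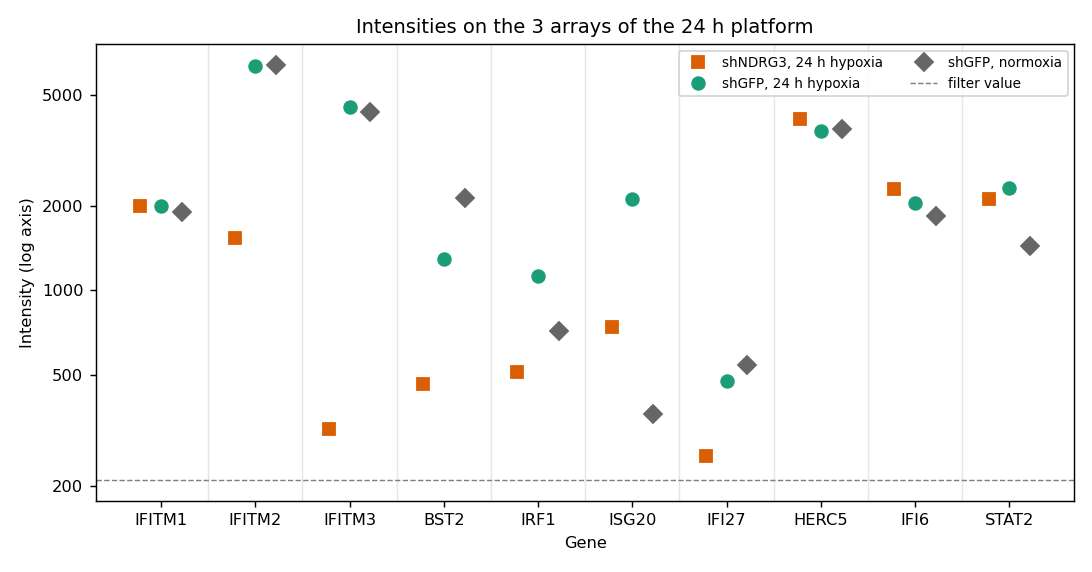
Linear intensity on a log axis of 10 interferon-stimulated genes on the 3 arrays of the 24 h platform, with shNDRG3 in hypoxia as squares, shGFP in hypoxia as circles and shGFP in normoxia as diamonds; the dashed line is the filter value (210.2). IFITM2, IFITM3 and BST2 are low in shNDRG3 cells, ISG20 lies between both control arrays, and IFITM1 and HERC5 are nearly level.

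The remaining effectors were lower at 24 h by smaller amounts: MX1 by -0.82, OAS3 by -0.79, IFI27 by -0.82, ISG15 by -0.56 and IFI30 by -0.52. HERC5 had intensities of 4083 in shNDRG3 cells and 3695 in shGFP cells (0.14). Measured genes above shGFP were IFI6, IFIT1, IFIT5 and HERC5, none by more than 0.24. Counted with no filter, 3 of the 33 genes were above shGFP at each of the 3 times (9.09%, against 16.6% of all genes) and 12 below at each (36.4%, against 15.2%). The 12 were BST2, IFI27, IFI30, IFI44L, IFIH1, IFIT2, IFIT3, IFITM2, ISG15, OAS1, OAS3 and STAT2. Of these, IFI44L and IFIT3 were under the filter value on both arrays at 24 h, and IFITM2 differed by only -0.02 and -0.06 at 6 h and 12 h. IFITM3 and IFITM2, apart on 1 array of 3, had NDRG3 estimates with wide errors, -1.12 ± 0.76 (SE; limma adjusted p = 0.664) and -0.70 ± 0.40 (adjusted p = 0.633).

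Genes with and without the ISRE core lay mostly below shGFP at 24 h. Of the 18 genes with the core, 12 lay below shGFP and 3 were 2-fold lower, with a median of -0.24 when no filter was set. Of the 8 genes with a window and without the core, 8 lay below shGFP and 1 was 2-fold lower, with a median of -0.34. Of all genes 47.8% lay below shGFP with no filter, and 2.57% of all measured genes were 2-fold lower. IFITM1, which has 2 cores in its window, was level, and IRF1, which has none, was 2-fold lower.

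In shHIF1A cells after 12 h of hypoxia no gene of the set was 2-fold apart from shGFP cells, where 1.14% of all measured genes were. With no filter, 20 of the 33 genes lay above shGFP and 13 below (39.4%, against 49.4% of all genes). The median was 0.10, beside an all-gene median of 0.00. OAS1 (-0.95), BST2 (-0.63) and IFI30 (-0.51) had the largest negative differences. GBP1 (0.67), OASL (0.60), IFI35 (0.54) and GBP2 (0.49) had the largest positive ones. GBP1 was under the filter value on the shGFP array (119) and passed through the shHIF1A array alone, so it could only be higher there. BST2 intensity was 4349 in shHIF1A cells against 6759 in shGFP cells.

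Genes that stood apart from normoxia in hypoxic shGFP cells differed in how shHIF1A cells compared at 12 h. ISG20 differed by -0.14 from shGFP (HIF1A estimate -0.35 ± 0.61, limma adjusted p = 0.913), STAT2 by -0.06 (-0.05 ± 0.13, adjusted p = 0.955), and IRF9 by 0.23 with an intensity of 1747 against 1481 (0.20 ± 0.17, adjusted p = 0.782). MX1, lower in hypoxia, had intensities of 277 in shHIF1A cells and 272 in shGFP cells. Its HIF1A estimate had the other sign (-0.18 ± 0.38). The 12 h reference of the fit is not the shGFP array alone and also draws on the shNDRG3 arrays of all times. Of the other genes below normoxia in hypoxic shGFP cells at 12 h, some were further from it in shHIF1A cells and some nearer. Among those further from it was OAS1, with 355 in shHIF1A cells, 715 in shGFP cells and 767 in normoxia. In the same order BST2 had 4349, 6759 and 7306, and IFI44L had 159, 200 and 256. Among those nearer to it were IFI16, IFIT3, OASL and GBP1. The shGFP array at 12 h enters both the hypoxia and the knockdown difference. IFI16 had intensities of 1159 in shHIF1A cells and 842 in shGFP cells after 12 h, with 1189 in shGFP cells in normoxia (HIF1A estimate 0.51 ± 0.37, limma adjusted p = 0.732). IFIT3 had 345 in shHIF1A cells and 291 in shGFP cells, with 356 in normoxia (0.21 ± 0.13, adjusted p = 0.683). OASL had 368 in shHIF1A cells and 232 in shGFP cells, with 338 in normoxia, and GBP1 had 209 and 119 in these cells, with 188 in normoxia. The GBP1 level of 119 lay under the filter value. None of these differences was called.

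The HIF1A term of the fit called 0 genes of the set and 0 of all 13237 genes (limma, Benjamini-Hochberg adjusted p). At an unadjusted p under 0.05 stood 5 of 31 genes (16.1%), against 10.8% of all genes. The estimates were -0.87 ± 0.19 (SE) for OAS1 (limma adjusted p = 0.201), 0.59 ± 0.14 for OASL (adjusted p = 0.219) and 0.61 ± 0.16 for GBP1 (adjusted p = 0.265). HIF1A itself had an estimate of -2.03 ± 0.30 (adjusted p = 0.134), so a targeted gene was not called either. The fit takes the spread of the single shHIF1A array to be that of the other arrays. Without the 24 h arrays, limma called 11 of the 31 genes (7 rose and 4 fell), with 2011 of 12156 called over all genes (16.5%) and 1 residual degree of freedom.

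The pathway upstream of these genes was measured through a further list of 78 symbols, 76 of them found. The 9 interferon genes of the list, among them IFNB1, IFNA1, IFNG and the lambda interferons IL28A, IL28B and IL29, were under the filter value on every array. The 9 receptors and kinases were over it on all arrays, except JAK2 on 1, and none was 2-fold apart in any comparison. IFNAR1 intensity at 24 h was 693 in shNDRG3 cells, 807 in hypoxic shGFP cells and 796 in normoxic shGFP cells. IFNGR1, the interferon gamma receptor, had 3310, 2910 and 2924 on the same arrays, and TYK2 had 2761, 2946 and 2644. The receptor chains and kinases thus lacked differences of the size seen in IFITM3 or ISG20.

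Of the further genes of the list, 6 were 2-fold apart in a comparison, all at 24 h: 4 of 47 measured for hypoxia, against 4.64% of all measured genes, and 2 of 44 for shNDRG3 minus shGFP, against 3.25%. TMEM173, the adaptor STING, had an intensity of 281 in shNDRG3 cells against 625 in shGFP cells (-1.07), and the secreted glycoprotein gene LGALS3BP had 710 against 1502 (-1.05). In shGFP cells, PARP12 had 228 in hypoxia against 558 in normoxia (-1.18), SAMD9 had 406 against 859 (-1.03) and ZC3HAV1, the zinc finger antiviral protein, had 644 against 1397 (-1.08). PNPT1, a mitochondrial exoribonuclease, was higher, with 5649 in hypoxia against 2500 in normoxia (1.17). In limma none of the 55 to 57 genes of this list that were tested was called for any term, with 8, 4 and 4 at an unadjusted p under 0.05 for hypoxia, NDRG3 and HIF1A, or 14.5%, 7.02% and 7.02%, against 19.4%, 8.53% and 10.8% of all genes. With no filter, the median differences of the 76 genes at 24 h were -0.04 for shNDRG3 minus shGFP and -0.04 for hypoxia minus normoxia.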

How the data were processed

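The authors deposited linear intensity values in a probe table for each of 2 platforms and in a gene-level table, and the gene-level intensity was used here. The labels' protocols give column-purified total RNA, of which 200 ng was amplified; how the arrays were scanned and normalized is not given in the sources used here. Sorted probe values nearly coincide between arrays of a platform (largest log2 deviation 0.0268 and 0.00399), so the values appear quantile normalized, and lowest values of 58.0 and 104.7 show that background remains, which understates differences of dim genes. No column belonged to a sample outside the series. Values were used as log2(intensity + 32) with the filter at the 40th percentile and no further normalization. limma 3.58.1 (R 4.3.3) fitted a hypoxia term to 5 shGFP arrays with a platform block, and NDRG3 and HIF1A terms to the 9 arrays together, with a separate mean for every condition at every time, each with 2 residual degrees of freedom; Benjamini-Hochberg adjusted p under 0.05 was the threshold. The code was tested on simulated data. Groups come from the sample titles, 1 array each, so p-values measure spread between times and not between cultures, and signal over background and the number of arrays limit precision. The members, gene lists and tests were chosen with earlier results of these data known. Genes described with every array's value were those at least 2-fold apart in a comparison or foremost in rank; other members and pathway genes were named from their lists, and IRF9, STAT2, IFIT1, OAS1 and HERC5 were given more values after these were seen. Pathway symbols were matched as filed or through RefSeq synonyms (GRCh38.p14), and MB21D1 and DDX60L were not matched. One gene of the pathway list is not reported here. Promoter positions count from the annotated start. Alternatives covered the filter, the pseudocount, background subtraction, centring, genes with 1 probe and leaving out times.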

Additional observations from a re-analysis of the deposited data

Results flagged for a closer look

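ISG20 differed between shNDRG3 and shGFP cells in opposite directions at 2 times: by 0.60 (log2) at 6 h, with 1408 in shNDRG3 cells against 917 in shGFP cells, and by -1.49 at 24 h, with 737 against 2124. The difference between the times was not tested, each value rests on 1 array per group, and the 24 h arrays lie on the other platform.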

How the results depend on the processing

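Each choice was changed alone. Of 11 differences of at least 2-fold among the interferon-stimulated genes, all kept their direction in the 66 values recomputed, and 63 stayed at least 2-fold; MX1 at 12 h, IFIT2 at 24 h (both hypoxia) and IRF1 in shNDRG3 cells at 24 h did not with a pseudocount 4 times as large. That pseudocount left 1 such gene at 12 h and 1 at 24 h of hypoxia, in place of 2. Subtracting the 5th percentile as background gave 6 at 24 h of hypoxia (2 without), 10 in shNDRG3 cells at 24 h (5 without) and 2 in shHIF1A cells (0 without), while the counts over all genes grew to 1472, 1158 and 337. The median for shNDRG3 minus shGFP at 24 h over the genes past the filter, 5 of them through shGFP alone, was -0.44; it was -0.21 without a filter, -0.54 with the 60th percentile, -0.63 with background subtracted and -0.56 over genes with 1 probe. Members called by limma (0 for each term) became 7 for hypoxia without the 6 h arrays, and 8 for NDRG3 and 11 for HIF1A without the 24 h arrays; the cause was not tested. The other 37 counts of 2-fold genes, 38 medians and 23 counts of calls kept within their tolerance (a factor of 1.5 or 0.1 on the log2 scale). No paired analysis was possible because each group is 1 array and the labels give no replicate numbers; the fits already compare groups within a time or platform. Intensity near background limits IFIT5, RSAD2, IFI44L and XAF1.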

Other observations

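ISG20 was higher after 12 h than after 6 h of hypoxia in both lines measured at these times. Its log2 difference, 12 h minus 6 h, was 1.28 in shNDRG3 cells and 1.70 in shGFP cells, and MX1 differed by -0.65 in shNDRG3 cells and -0.70 in shGFP cells. Set against shNDRG3 cells at 12 h, shHIF1A cells had 0.77 more IFI27 and 0.73 more IFIT2 on the log2 scale. IRF8, a factor of the interferon gamma response, had an intensity of 339 in shHIF1A cells, against 170 to 203 on the other arrays of that platform. Its HIF1A estimate was 0.80 ± 0.16 (SE; limma adjusted p = 0.186). The other values in this paragraph rest on 1 array each, and these contrasts were not fitted.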
